A study of Mus musculus with 8 samples.

Results

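Il17 cells are here the cells with at least 1500 unique molecular identifiers (UMIs, 1 per captured mRNA molecule) and at least 1 UMI of Il17a or Il17f. They numbered 4330 of the 93066 cells with at least 1500 UMIs and of 104660 cells in all, and 1195 of them were KO and 3135 WT. The cells were mouse CD4+ T cells from the spleens of females at 10 weeks of age, either lacking Gpr65 (KO, labelled Gpr65_KO) or wild type (WT, labelled Gpr65_WT), polarized in culture and harvested at day 3. Th17 cultures of both genotypes received IL-1b at 20 ng/ml, IL-6 at 25 ng/ml and IL-23 at 20 ng/ml, while those for Th22 had more IL-6 (40 ng/ml), unchanged IL-1b and IL-23, and 400 nM of FICZ, which activates the aryl hydrocarbon receptor. The groups were KO Th17, KO Th22, WT Th17 and WT Th22, with 2 libraries each, profiled with 10x Genomics 3′ kits. The sources used here give neither the deleted part of Gpr65 nor whether the 2 libraries of a group came from separate mice or cultures. The p-values therefore reflect only how much these libraries varied, and that variation may be technical.

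IL-17A and IL-17F are related cytokines that pair with themselves or with each other and act on epithelial and stromal cells, where they induce chemokines and antimicrobial proteins. T helper 17 cells make them under the transcription factors RORα (Rora), STAT3, BATF and IRF4, downstream of IL-6, IL-1 and IL-23. GPR65 is a receptor on the surface of lymphocytes and myeloid cells that is activated by extracellular protons and couples to cyclic AMP production.

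The summed Il17 cells of a library held between 876356 and 1865908 UMIs in KO, against 3304624 to 4375011 UMIs in WT. Their median depth per cell was 3210 and 3249 UMIs in KO Th17 and 6147 and 5219 in KO Th22, against 3468 and 5183 in WT Th17 and 3968 and 5270 in WT Th22. The median percent of mitochondrial UMIs in Il17 cells lay between 2.22 and 2.46 in KO libraries and between 2.47 and 2.63 in WT libraries. Any 2 libraries shared between 23 and 80 cell barcodes, and 1 barcode was an Il17 cell in 2 libraries. No doublet caller was run on these cells.

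The Il17 cells carried T cell transcripts. After each cell was thinned to 1500 UMIs, Cd3d had a UMI in 62.0% to 81.3% of the Il17 cells of a library and Cd4 in 10.7% to 20.5%, while Cd8a, which marks CD8 T cells, did not exceed 0.402% and Cd79a, which marks B cells, was at 0 in every library. Trdc, a constant gene of the gamma-delta T cell receptor, had a UMI in 0% to 2.41% of the Il17 cells and in 0.672% to 1.91% of the other cells, meaning those with at least 1500 UMIs and no Il17a or Il17f UMI. The share of Il17 cells that free RNA alone gives could not be measured, since only 2 cells had the B cell transcripts and lacked the T cell transcripts fixed for that purpose. A cell without an Il17 UMI may still express the genes.

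Il17 cells were scarcer in KO in both cultures. They made up 1.99% and 3.46% of the cells in the KO Th17 libraries, against 8.95% and 8.25% in the WT Th17 libraries. In Th22 cultures they made up 1.87% and 2.42% in KO, against 5.75% and 5.87% in WT. The KO and WT ranges did not overlap in either culture. The 95% intervals (exact binomial, for counting error alone) reached 3.80% at most in KO and began at 5.36% in WT. The log2 ratio of mean shares, KO over WT, was -1.66 in Th17 (spread 0.57, the root of the summed variances of the log2 values of the 2 sides, n = 2 each) and -1.44 in Th22 (spread 0.27). Because the cells were chosen on these transcripts, their share and their Il17 UMIs are given as a description, with no test.

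The number of Il17a and Il17f UMIs was then counted in the cells that held at least 1. Because every such cell holds 1 UMI or more by the rule, lower expression in all cells would also show as a lower share, and fewer expressing cells and less RNA per cell cannot be told apart from these values. KO Th17 Il17 cells averaged 2.77 and 2.54 UMIs per library, against 3.41 and 3.996 in WT Th17. KO Th22 Il17 cells averaged 2.91 and 3.10 UMIs, against 3.01 and 3.37 in WT Th22, where the ranges overlapped. The log2 ratio of these means was -0.48 in Th17 (spread 0.18) and -0.09 in Th22 (spread 0.13). Per 1000 cells of a library, Il17 UMIs numbered 55.2 and 87.9 in KO Th17 and 54.4 and 75.0 in KO Th22, against 306 and 329.6 in WT Th17 and 173 and 198 in WT Th22. The log2 ratio of that total was -2.15 in Th17 and -1.52 in Th22.

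**Figure D1:**
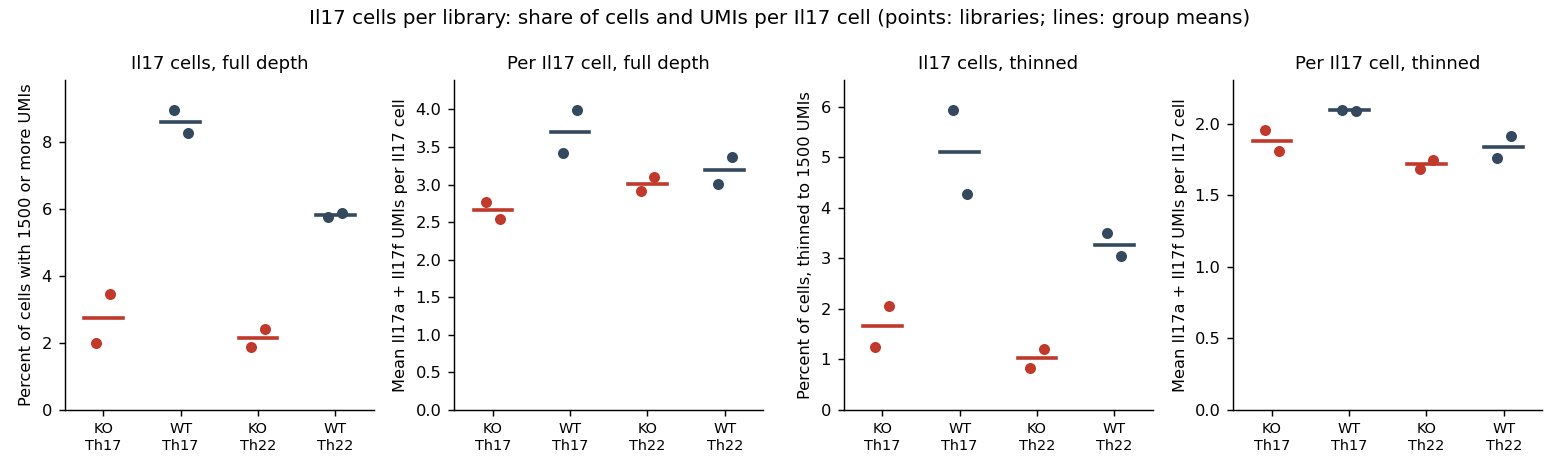
Percent of cells that were Il17 cells and mean Il17a plus Il17f UMIs per Il17 cell, at full depth (left pair of panels) and after every cell was thinned to 1500 UMIs (right pair). Each point is a library and each line a group mean (n = 2); the shares of KO and WT lie apart in both cultures, 1.87% to 3.46% against 5.75% to 8.95% at full depth, while the means per Il17 cell lie between 2.54 and 3.996 UMIs.

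Depth moved with the level per cell. With every cell thinned to 1500 UMIs, Il17 cells averaged 1.96 and 1.81 UMIs in KO Th17, against 2.10 and 2.09 in WT Th17, a log2 ratio of -0.15, and 1.69 and 1.75 UMIs in KO Th22, against 1.76 and 1.91 in WT Th22. The thinned shares were 1.25% and 2.05% in KO Th17, against 5.95% and 4.28% in WT Th17, and 0.829% and 1.21% in KO Th22, against 3.496% and 3.04% in WT Th22. Per 10000 UMIs of the Il17 cells at full depth, Il17 UMIs numbered 7.86 and 6.87 in KO Th17, against 8.78 and 7.31 in WT Th17, and 4.94 and 5.57 in KO Th22, against 7.02 and 6.07 in WT Th22. Within cells of 4000 to 10000 UMIs at full depth, 2.77% to 6.60% of cells per library were Il17 cells in KO, against 9.76% to 17.2% in WT. Those of Th17 cultures held 3.77 and 2.83 Il17 UMIs on average in KO, against 4.47 and 4.501 in WT, and those of Th22 cultures 3.17 and 3.58 in KO, against 3.87 and 3.73 in WT, so both KO libraries were below both WT libraries in each culture. Within cells of 2500 to 4000 UMIs the mean was 2.63 and 2.68 in KO Th17, against 2.89 and 2.52 in WT Th17, which overlapped. It was 2.0 and 1.70 in KO Th22, against 2.40 and 2.42 in WT Th22, which did not. Within cells of 1500 to 2500 UMIs the means overlapped in both cultures. They were 1.85 and 1.80 in KO Th17, against 2.46 and 1.58 in WT Th17. In Th22 they were 1.0 and 1.78 in KO, from 6 and 18 Il17 cells, against 1.60 and 1.75 in WT.

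Most Il17 cells held few Il17 transcripts in either genotype. Exactly 1 UMI was found in 57.0% and 58.9% of the KO Th17 Il17 cells and in 63.9% and 56.8% of the KO Th22 ones, against 47.0% and 50.4% in WT Th17 and 51.4% and 52.7% in WT Th22. With thinned cells the share was 62.2% and 63.6% in KO Th17, against 56.6% and 61.0% in WT Th17. In Th22 it was 69.8% and 64.9% in KO, against 65.5% and 58.5% in WT, which overlapped. Cells of 5 or more UMIs made up 15.7% and 12.02% in KO Th17 and 14.4% and 17.6% in KO Th22, against 21.7% and 21.8% in WT Th17 and 16.3% and 20.5% in WT Th22. Such cells held between 46.4% and 59.7% of the Il17 UMIs of a KO library, against 54.4% to 68.5% in WT. The highest count in 1 cell was 59 UMIs in KO and 75 in WT. At the edges of the rule, 702 KO and 1570 WT Il17 cells were inside it by 1 UMI, and 23 of 6211 KO cells and 102 of 5383 WT cells below 1500 UMIs had an Il17 UMI.

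**Figure D2:**
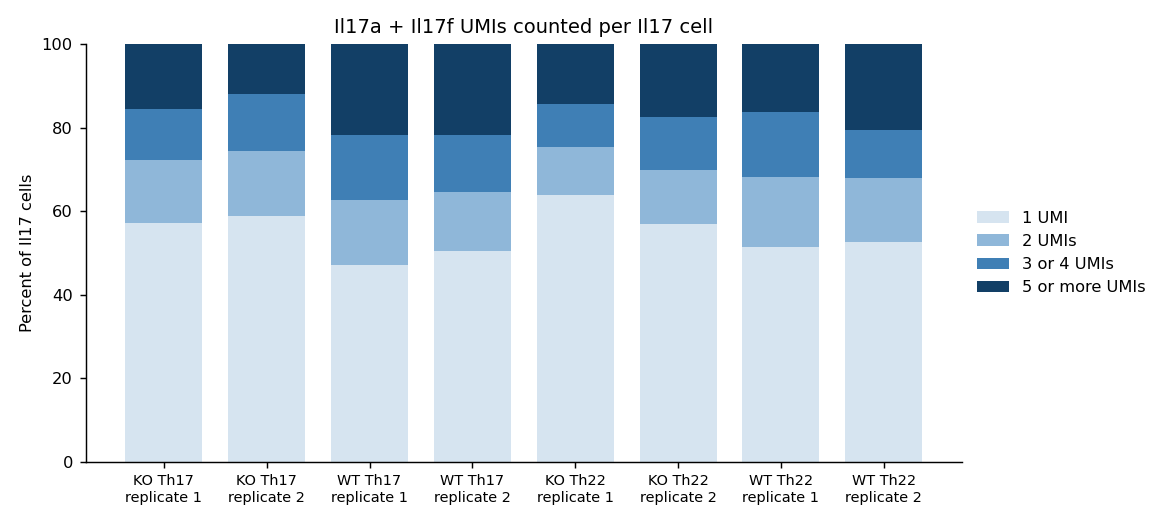
Percent of the Il17 cells of each library with 1, 2, 3 or 4, and 5 or more UMIs of Il17a plus Il17f (stacked to 100%). At full depth, shown here, the class with 1 UMI takes 56.8% to 63.9% in the KO libraries, against 47.0% to 52.7% in the WT libraries. With thinned cells KO and WT overlap in Th22.

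Most Il17 cells held UMIs of only 1 of Il17a and Il17f. A cell with exactly 1 Il17 UMI cannot hold both. Such cells made up 56.8% to 63.9% of the Il17 cells in KO libraries and 47.0% to 52.7% in WT libraries. The share with both therefore depends on the number of Il17 UMIs per cell. Cells with both transcripts made up 14.9% and 13.9% of the Il17 cells in KO Th17 and 9.28% and 10.7% in KO Th22, against 20.7% and 18% in WT Th17 and 17.3% and 15.99% in WT Th22, so the KO libraries were lower in both cultures. Among cells with an Il17f UMI, the mean Il17f count was 1.71 and 1.68 in KO Th17, against 2.34 and 2.62 in WT Th17, and 2.02 and 2.46 in KO Th22, against 2.18 and 2.54 in WT Th22. Among cells with an Il17a UMI, the mean Il17a count was 3.34 and 3.47 in KO Th17, against 3.88 and 5.03 in WT Th17. In Th22 cultures the same mean lay the other way, at 4.94 and 4.26 in KO, against 3.54 and 3.97 in WT. Those KO Th22 means rest on 29 and 34 cells with Il17a alone and 18 and 36 cells with both. Per 10000 UMIs of the Il17 cells, Il17a UMIs numbered 2.03 and 1.60 in KO Th22, against 2.73 and 2.12 in WT Th22. On that scale KO was the lower. Il17f made up 40.3% and 52.4% of the Il17 UMIs in KO Th17 and 58.9% and 71.3% in KO Th22, against 56.8% and 52.7% in WT Th17 and 61.1% and 65.1% in WT Th22.

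Cluster 2, which is 1 of 12 clusters deposited by the authors, held 61.3% of all Il17 cells. It took 61.0% and 62.3% of the Il17 cells in KO Th17 and 55.2% and 56.3% in KO Th22, against 62.7% and 57.3% in WT Th17 and 67.6% and 61.0% in WT Th22. Within cluster 2, 16.2% and 25.7% of the cells were Il17 cells in KO Th17, against 44.0% and 40.7% in WT Th17, and 13.99% and 18.5% in KO Th22, against 27.6% and 26.7% in WT Th22. Outside it, Il17 cells were 0.840% to 1.43% of the cells in KO libraries and 2.17% to 3.99% in WT libraries. An Il17 cell of cluster 2 held 3.29 to 4.34 UMIs on average in KO libraries and 3.78 to 5.82 in WT libraries. Outside cluster 2 it held 1.31 to 1.497 UMIs in KO and 1.40 to 1.66 in WT. The clusters were made from the same cells by a procedure that the sources used here do not give.

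Other transcripts of the same cells were then compared, after thinning to 1500 UMIs, with an exact two-sided permutation test of genotype within culture, whose smallest possible p is 0.0556. Of 12 transcripts tested, none passed after Benjamini-Hochberg adjustment, and none could have, because that smallest p already lies above the threshold used here. The lack of a pass therefore does not show that any of these transcripts was unchanged. Ifitm3, which encodes a membrane protein that restricts virus entry, had a UMI in 2.81% and 5.53% of the KO Th17 Il17 cells, against 15.7% and 10.9% in WT Th17, and in 13.9% and 12.8% in KO Th22, against 32.7% and 33.4% in WT Th22. Il24, which encodes a cytokine of the IL-10 family, had a UMI in 9.64% and 6.01% in KO Th17, against 14.8% and 15.1% in WT Th17, and in 1.03% and 1.79% in KO Th22, against 6.10% and 3.29% in WT Th22. For both, the KO libraries were lower than the WT libraries of the same culture, by 14.4 and 5.21 percentage points on average (exact permutation p = 0.0556, adjusted 0.333 for each).

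Il22, which encodes a cytokine that acts on epithelium, had a UMI in 9.24% and 5.29% of the KO Th17 Il17 cells, against 3.02% and 3.88% in WT Th17. In Th22 cultures it had a UMI in 8.25% and 12.2% in KO, against 12.8% and 12.5% in WT. The groups did not overlap in either culture and lay in opposite orders, and over both cultures the difference was 0.674 percentage points (exact permutation p = 0.667). Gzmb, which encodes the cytotoxic protease granzyme B, varied most among the KO libraries, at 5.62% and 12.7% in KO Th17 and 7.73% and 19.0% in KO Th22, against 7.02% and 7.25% in WT Th17 and 9.21% and 9.56% in WT Th22. Csf2, Ifng, Il2, Ccr6, Il23r and Trdc had a UMI in at most 2.64% of the Il17 cells of any library, and Mki67, a gene of dividing cells, in 4.33% to 8.03% in KO, against 4.86% to 6.23% in WT.

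**Figure D3:**
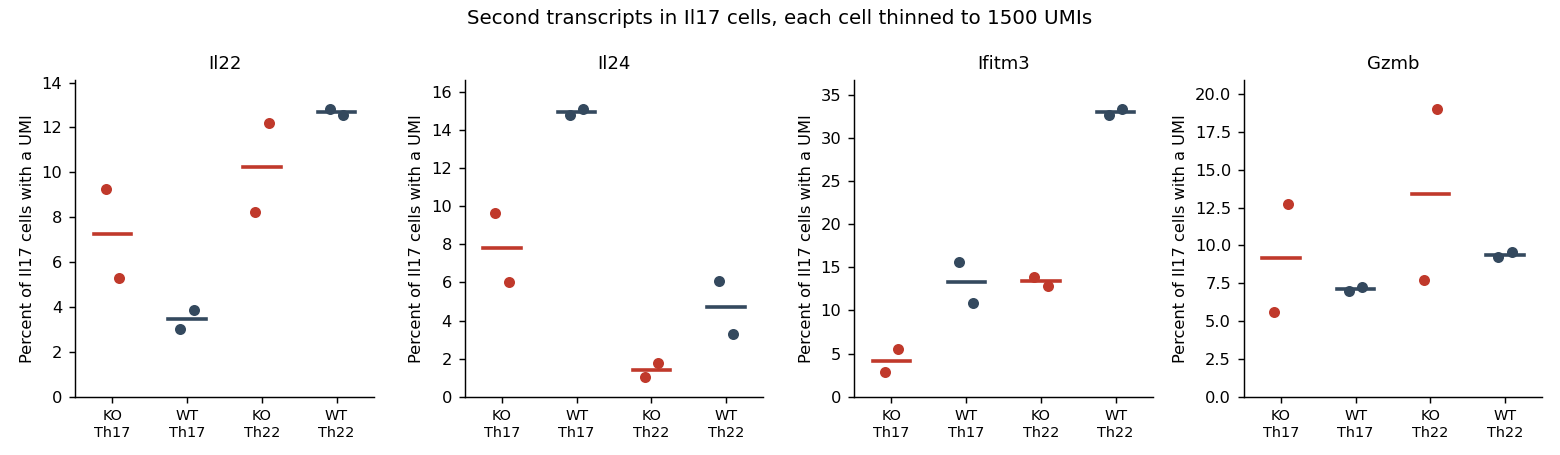
Percent of Il17 cells with a UMI of Il22, Il24, Ifitm3 and Gzmb, each cell thinned to 1500 UMIs. Points are libraries and lines are group means (n = 2); Il24 and Ifitm3 are lower in both KO libraries of each culture, and Il22 is higher in KO Th17 and lower in KO Th22.

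To ask how the Il17 cells of the 2 genotypes differed over all genes, their counts were summed per library and fitted with culture as a term. Of 9474 genes tested, 86 were called, meaning an adjusted p below 0.05 in edgeR's quasi-likelihood test, or 0.908% of the genes tested, with 44 higher (0.464%) and 42 lower (0.443%) in KO. Levels are given in CPM of the summed Il17 cells, counts scaled by TMM-adjusted library totals. Fold changes are log2 of KO over WT, with a standard error (SE, or ±) derived from the test. It is the fold change, without its sign, divided by the root of the F statistic. This SE can be too small where KO or WT has few counts, as for Gpr65. Over all genes tested the median log2 fold change was 0.0026. The named genes are, in each direction, the 12 with the largest fold change among called genes of at least 10 CPM whose KO and WT libraries did not overlap in either culture, together with members of gene lists and a fixed set of T helper genes.

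Gpr65 itself had 1.06 and 0.637 CPM in KO Th17 and 4.32 and 1.80 CPM in KO Th22, against 154 and 116 CPM in WT Th17 and 131 and 100.2 CPM in WT Th22. The KO values rest on 10 UMIs over all 4 libraries, and the log2 fold change was -6.01 ± 0.28 (edgeR adjusted p = 5.4e-11). The gene lies on chromosome 12 of mm10, from 98268635 to 98276644 on the plus strand. Of the 8 tested genes of proton sensing and acid handling, only Gpr65 was called. Gpr132, which encodes a receptor related to GPR65, had a log2 fold change of -0.29 ± 0.17 (adjusted p = 0.58).

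Genes of the amino acid response, which the transcription factor ATF4 induces when amino acids are short or protein folding is disturbed, were among the called rises. Of 19 tested members of that list, 5 rose, none fell, and the median log2 fold change was 0.35. Of all genes tested, 0.464% rose and 0.443% fell. Nupr1, which encodes a stress-induced chromatin protein, had 196 and 154 CPM in KO Th17 and 129 and 110.0 CPM in KO Th22, against 53.7 and 75.1 CPM in WT Th17 and 35.5 and 46.0 CPM in WT Th22. Every KO library was above every WT library, and the log2 fold change was 1.47 ± 0.13 (edgeR adjusted p = 1.2e-06). Cth, which makes cysteine from cystathionine, rose by 1.14 ± 0.23 (adjusted p = 0.0164). Sesn2, which encodes a sensor of leucine upstream of mTORC1, rose by 0.98 ± 0.20 (adjusted p = 0.0164), Psph, the last enzyme of serine synthesis, by 0.54 ± 0.10, and the transcription factor gene Atf5 by 0.49 ± 0.12. In the other cells 7 of 20 members of the list rose, against 1.52% of all genes tested there, among them Nupr1, Cth, Psph and Atf5.

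The core of the amino acid response element, TGATGNAA, was looked for on both strands of the promoters of these genes, as a description of the sequence and not of binding. It was found in 6 of the 18 list promoters in the RefSeq table (build GRCm38.p6, 250 bases before to 50 after each start). The share was 4.06% of all 27025 promoters and 2.18% of those of genes tested among Il17 cells. The list was chosen as genes that ATF4 induces, so its share is a description and no test. Of the 5 called genes 4 had an entry, and Nupr1 alone held a match. The 60 bases around it, chr7:126625547-126625606 on the minus strand, are shown 5′ to 3′ with the match, which lies on the opposite strand of the motif as spelled, in capitals.
Nupr1: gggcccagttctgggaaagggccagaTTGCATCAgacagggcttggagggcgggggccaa

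The other large rises were of mixed kinds. S100a6, which encodes a calcium-binding protein, had 396 and 387 CPM in KO Th17 and 287 and 406 CPM in KO Th22, against 139 and 186 CPM in WT Th17 and 164 and 152 CPM in WT Th22, a log2 fold change of 1.20 ± 0.11 (edgeR adjusted p = 3.4e-06). Nkg7, which encodes a protein of cytotoxic granules, had 65.5 and 94.3 CPM in KO Th17 and 50.2 and 60.1 CPM in KO Th22, against 29.2 and 22.9 CPM in WT Th17 and 9.48 and 21.2 CPM in WT Th22. Its log2 fold change, 1.74 ± 0.19 (adjusted p = 0.00011), was the largest among the named rises. Plek, which encodes the protein kinase C substrate pleckstrin, had 84.6 and 97.5 CPM in KO Th17 and 44.1 and 40.3 CPM in KO Th22, against 38.2 and 27.0 CPM in WT Th17 and 30.3 and 23.2 CPM in WT Th22. In each of these the KO libraries of a culture were both above the WT libraries of that culture, as the rule for naming them required.

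A further 7 named genes rose by 0.98 to 1.43 on the log2 scale. They were Cox6a2, a subunit of respiratory complex IV (1.43 ± 0.27), Slamf7, a receptor of lymphocyte activation (1.20 ± 0.21), Nek6, a mitotic kinase (1.14 ± 0.19), Nrn1, which encodes neuritin (1.03 ± 0.17), Chst2, a sulfotransferase (1.01 ± 0.24), Bcl2a1b, a survival gene of the BCL2 family (0.98 ± 0.18), and Isg15, an interferon-induced ubiquitin-like protein (1.27 ± 0.29). Isg15 had 27.5 and 12.7 CPM in KO Th17 and 19.9 and 11.4 CPM in KO Th22, against 8.46 and 7.86 CPM in WT Th17 and 3.37 and 8.09 CPM in WT Th22. It was the only one of 11 tested interferon-stimulated genes that was called, with a median of 0.20 over the list. Of 7 tested cytotoxic granule genes, Nkg7 rose and Gzma, which encodes granzyme A, fell, and Gzma was at 0 to 3.17 CPM in KO libraries, against 3.98 to 11.7 CPM in WT libraries. Markers of natural killer cells summed to 0 to 4.32 CPM in KO libraries and 0 to 1.85 CPM in WT libraries, and those of gamma-delta T cells to 4.21 to 33.8 CPM in KO and 6.12 to 14.2 CPM in WT, with 2 of their 8 measured genes at 0. The part of such cells in these changes was tested only by leaving out cells with a gamma-delta receptor UMI, after which 78 genes were called, 76 of them among the 86, while Ifitm1, described next, was among those lost.

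The Ifitm genes, a family of interferon-inducible membrane proteins, were lower in KO, and all 3 that were tested fell, against 0.443% of all genes tested. Ifitm1 had 59.2 and 58.0 CPM in KO Th17 and 548 and 510.4 CPM in KO Th22, against 365 and 237 CPM in WT Th17 and 1439 and 1504 CPM in WT Th22. The KO libraries lay below the WT libraries within each culture, as the rule for naming required, while KO Th22 lay above WT Th17. The log2 fold change was -1.83 ± 0.18 for Ifitm1 (edgeR adjusted p = 0.00071), -1.38 ± 0.17 for Ifitm3 (adjusted p = 0.0017) and -0.58 ± 0.10 for Ifitm2 (adjusted p = 0.0054). Ifitm3 had 24.3 and 49.7 CPM in KO Th17 and 226 and 187 CPM in KO Th22, against 149 and 104 CPM in WT Th17 and 480.3 and 455 CPM in WT Th22. These genes are related in sequence, as Bcl2a1b is to its neighbours, and reads that match more than 1 of them may not have been counted. That was not tested. Ifitm1 lost its call without cells with a gamma-delta receptor UMI and outside cluster 2 (largest edgeR adjusted p = 0.0933). Its log2 fold change lay between -1.95 and -1.45 over the 22 alternatives. In Th17 alone Ifitm1 kept its call under all 20 alternatives, and in Th22 alone it lost it without cells with a gamma-delta receptor UMI. Ifitm3 lost its call with 2 or more Il17 UMIs required (-1.11, adjusted p = 0.359).

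The interferon-stimulated response element core, GAAA followed by any 2 bases and GAAA, was looked for on both strands. It was found in 2 of the 3 promoters of the Ifitm genes that fell, and in 2 of 5 of the whole family. The promoter of Ifitm1, which fell most of the 3, held no match. In the interferon-stimulated list, in which Isg15 rose, 8 of 12 promoters held a match. The share was 3.49% of all promoters and 3.02% of those of genes tested among Il17 cells. Both lists were chosen as interferon-induced genes, so their shares are a description and no test. A stretch with a match is shown for Ifitm2 and Ifitm3, 5′ to 3′ on the minus strand of chromosome 7, with the match in capitals. That of Ifitm2 is chr7:140955973-140956032, before its start. That of Ifitm3 is chr7:141010706-141010735, just past its start, and a second match nearer to that start is not shown.
Ifitm2: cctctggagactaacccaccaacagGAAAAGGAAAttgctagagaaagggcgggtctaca
Ifitm3: aaacttctgaGAAACCGAAActgccgcaga

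Il24 fell in both cultures. It had 88.8 and 69.5 CPM in KO Th17 and 20.8 and 24.6 CPM in KO Th22, against 179.5 and 171 CPM in WT Th17 and 73.1 and 47.7 CPM in WT Th22, a log2 fold change of -1.25 ± 0.14 (edgeR adjusted p = 4.9e-05). It was the only one of 9 tested effector cytokine genes other than Il17a and Il17f that was called over both cultures. Tent5a, which encodes a poly(A) polymerase, had 12.7 and 18.5 CPM in KO Th17 and 20.8 and 10.8 CPM in KO Th22, against 45.0 and 43.9 CPM in WT Th17 and 41.6 and 42.4 CPM in WT Th22 (log2 fold change -1.47 ± 0.17, adjusted p = 6.7e-05). Ecm1, which encodes a secreted matrix protein, had 30.7 and 65.0 CPM in KO Th17 and 51.0 and 73.3 CPM in KO Th22, against 145 and 124 CPM in WT Th17 and 155 and 169 CPM in WT Th22 (-1.39 ± 0.16, adjusted p = 0.00011). For Tent5a and Ecm1 every KO library was below every WT library.

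The remaining large falls were Ttc39c (-1.36 ± 0.28), Fcmr, the receptor for the constant part of IgM (-1.25 ± 0.19), Ltb4r1, a receptor for the lipid mediator leukotriene B4 (-1.22 ± 0.18), the tubulin gene Tubb6 (-1.09 ± 0.22), the protease inhibitor gene Serpinb6b (-1.06 ± 0.20) and Fam102a (-1.06 ± 0.17). Activation and checkpoint genes had 3 members that fell, against 0.443% of all genes tested, and none that rose among 14 tested, with a median of -0.17. They were Icos, a co-stimulatory receptor (-0.69 ± 0.13), Ctla4, an inhibitory receptor (-0.62 ± 0.13), and Tnfrsf18, which encodes GITR (-0.44 ± 0.09). Icos had 39.1 and 41.4 CPM in KO Th17 and 38.9 and 35.5 CPM in KO Th22, against 74.8 and 76.3 CPM in WT Th17 and 53.8 and 48.3 CPM in WT Th22. Of 12 tested BCL2 family genes Bcl2 fell (-0.51 ± 0.11) and Bcl2a1b rose.

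**Figure D4:**
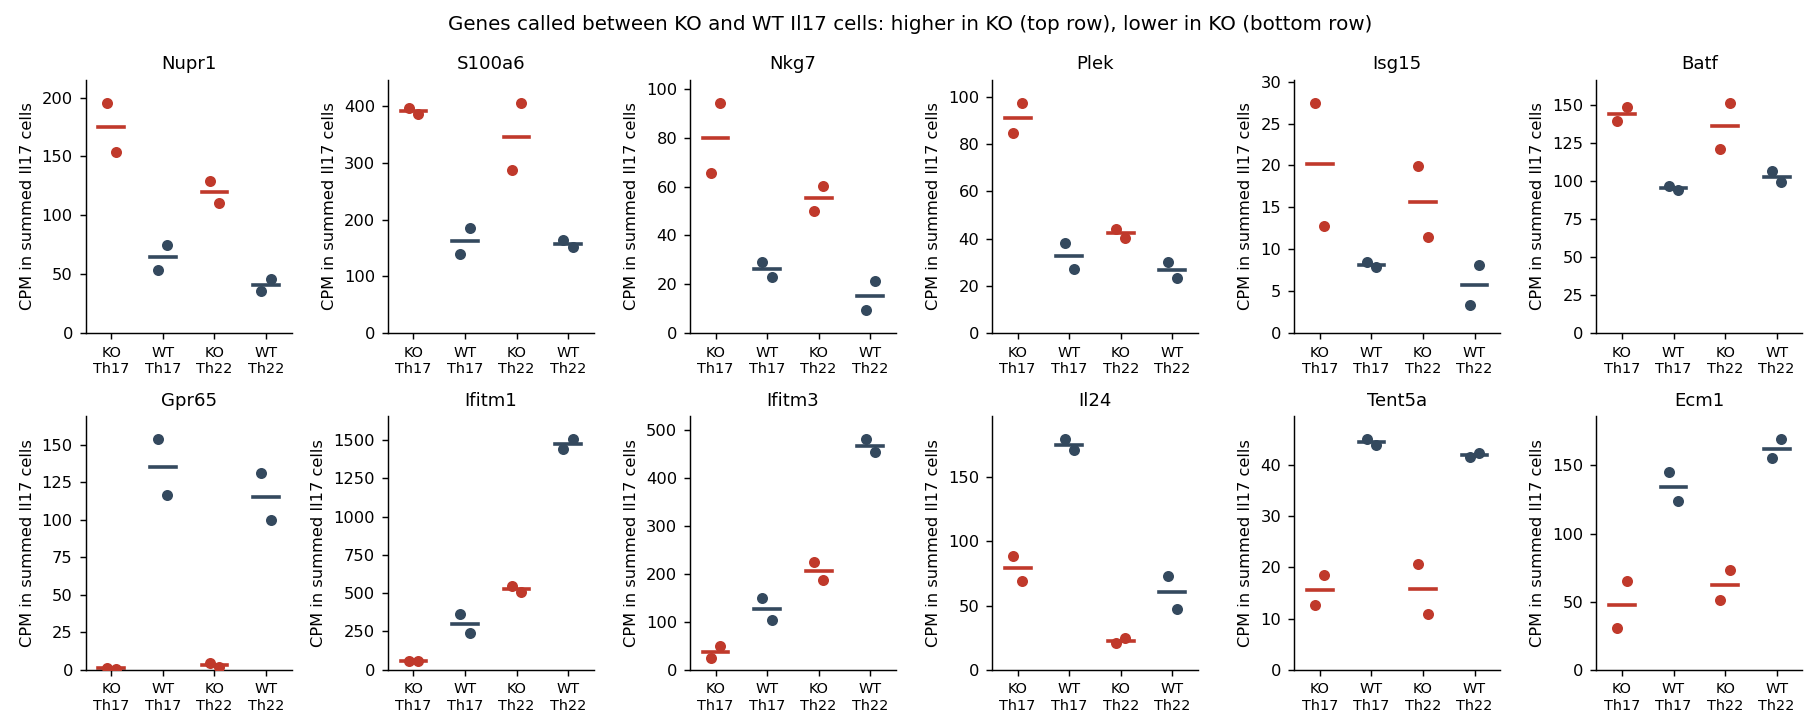
Level in CPM of 12 called genes in the summed Il17 cells of each library, with group means as lines (n = 2). Nupr1, S100a6, Nkg7, Plek, Isg15 and Batf (top row) are higher in both KO libraries of each culture, and Gpr65, Ifitm1, Ifitm3, Il24, Tent5a and Ecm1 (bottom row) are lower. For all but Batf the rule for naming required this separation.

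Of 17 tested regulators and receptors of the Th17 lineage, 2 were called, against 0.908% of all genes tested. Batf, a transcription factor needed for Th17 cells, rose by 0.51 ± 0.10 (edgeR adjusted p = 0.016) and Hif1a, the oxygen-regulated transcription factor, fell by 0.49 on the log2 scale (SE 0.09, adjusted p = 0.011), and the median was 0.083. Batf had 139.5 and 148 CPM in KO Th17 and 121 and 152 CPM in KO Th22, against 96.6 and 94.1 CPM in WT Th17 and 106 and 99.1 CPM in WT Th22. The log2 fold changes were 0.083 ± 0.13 for Rora, 0.79 ± 0.32 for the IL-23 receptor gene Il23r (adjusted p = 0.36) and 0.75 ± 0.49 for the chemokine receptor gene Ccr6. Fosl2, which encodes an AP-1 transcription factor, fell by 0.75 (SE 0.16, adjusted p = 0.026), alone among 13 tested genes of STAT3 signalling and its feedback.

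Il22 had 83.5 and 101 CPM in KO Th17 and 179 and 252 CPM in KO Th22, against 76.9 and 58.9 CPM in WT Th17 and 274 and 230.5 CPM in WT Th22 (log2 fold change 0.078 ± 0.16, edgeR adjusted p = 0.92). Tnf had a log2 fold change of 0.051 ± 0.24, Il2 of 1.62 ± 0.59 (adjusted p = 0.38), Tbx21 of 1.25 ± 0.51 (adjusted p = 0.37), Gata3 of 0.027 ± 0.31, Ahr of 0.20 ± 0.27, Gzmb of 0.26 ± 0.40, Klf2 of -0.69 ± 0.26 (adjusted p = 0.295), Mki67 of 0.19 ± 0.16 and Trdc of 0.29 ± 0.39. None of these was called. Cyp1a1, the best known target of the aryl hydrocarbon receptor, was at 0 in all Th17 libraries of both genotypes, and had 21.6 and 15.0 CPM in KO Th22, against 7.34 and 20.6 CPM in WT Th22. Csf2, Il10 and Foxp3 did not exceed 3.01 CPM in any library and were not tested. Ifng was also below the filter, at 0 to 3.01 CPM in 7 libraries and 42.1 CPM in WT Th22 replicate 2.

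No tested member was called among 12 genes of the T cell receptor complex (median -0.25), 16 S phase genes (0.21), 16 G2/M genes (0.19), 13 genes of ribosome biogenesis and Myc-driven growth (0.17), 9 Th1 and Th2 regulators (-0.14), 6 targets of the aryl hydrocarbon receptor (-0.23), 5 regulatory T cell genes (-0.40), 5 MHC class II genes (0.19) or 3 chemokines (1.55). Of 18 glycolysis and hypoxia genes, Slc2a3, a glucose transporter, fell by 0.82 (SE 0.19, edgeR adjusted p = 0.048). Of 17 cyclic AMP response and immediate early genes, Rgs16, a regulator of G protein signalling, rose by 1.14 ± 0.26 (adjusted p = 0.038). Of 16 respiratory chain genes, Cox6a2 was called.

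In Th17 cultures alone 41 genes were called between KO and WT Il17 cells (0.433% of those tested), 20 higher (0.211%) and 21 lower (0.222%), and in Th22 cultures alone 15 (0.158%), 4 higher (0.0422%) and 11 lower (0.116%). Both cultures called 9 genes in the same direction, namely Nupr1, S100a6, Nkg7, Gpr65, Ifitm1, Ifitm3, Il24, Tent5a and Ecm1. Spp1, which encodes the cytokine osteopontin, was the largest rise of Th17 cultures. It had 55.0 and 65.6 CPM in KO Th17, against 4.91 and 2.54 CPM in WT Th17 (4.05 ± 0.31, edgeR adjusted p = 1.5e-07), and 6.92 and 12.02 CPM in KO Th22, against 2.45 and 5.86 CPM in WT Th22 (1.22 ± 0.45, adjusted p = 0.53). Lgals3, which encodes galectin-3, rose by 1.31 ± 0.16 in Th17, Plek by 1.501 ± 0.19 and Slamf7 by 1.37 ± 0.29, and Sdc4, a heparan sulfate proteoglycan, fell by 1.67 (SE 0.37). Slamf7 lost its Th17 call under 12 of 20 alternatives and Sdc4 under 13 of 19, among them leaving out any 1 of the Th17 libraries. Ltb4r1 fell by 1.45 (SE 0.25) in Th22. Leaving out 1 library at a time moved the Th17 count to between 15, without KO Th17 replicate 2, and 104, without KO Th22 replicate 2, and the Th22 count to 5 without WT Th22 replicate 1 and 8 without WT Th22 replicate 2.

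The difference between the 2 genotype effects was tested directly and called no gene (0%), with 556 genes at an unadjusted p below 0.05, and DESeq2 called 0 as well. The genes with the smallest p were Spp1 (Th22 minus Th17, -2.83 ± 0.57), Dync1i2 (-1.02 ± 0.19), Nmt1 (-1.25 ± 0.24) and Nmt2 (-1.41 ± 0.29), each at an adjusted p of 0.219, and Cnot3 (-1.05 ± 0.22, adjusted p = 0.236). The genotype effects of the 2 cultures are therefore not shown to differ for any single gene, Spp1 included. Without WT Th17 replicate 1 the count was 15, without KO Th22 replicate 2 it was 6 and without KO Th22 replicate 1 it was 2.

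Most genes called in Il17 cells were also called in the cells without an Il17 UMI. Among those cells, 385 of 13199 genes were called (2.92%), 200 higher (1.52%) and 185 lower (1.40%) in KO. Of the 86 genes called in Il17 cells, 85 had the same sign in the other cells and 52 were called there too, which is 60.5% of the Il17 cell calls and 13.5% of the other cell calls. Leaving out single libraries moved the count in other cells to between 51, without WT Th22 replicate 2, and 708, without KO Th22 replicate 1. The 2 comparisons use the same libraries, and the other cells were summed to 28324230 to 56371360 UMIs per library. Nupr1, for example, changed by 1.47 ± 0.13 in Il17 cells and 1.33 ± 0.13 in other cells, Il24 by -1.25 ± 0.14 and -1.70 ± 0.09, and Hif1a by -0.49 ± 0.09 and -0.47 ± 0.07.

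A genotype effect that differed between Il17 cells and other cells of the same library was found for 85 of 12765 genes (0.666%), above 0 for 20 (0.157%) and below 0 for 65 (0.509%). Of the 86 genes above, 11 were among them. Ifitm1 and Ifitm3 fell less in Il17 cells. The genotype effect on Ifitm1 was -1.83 ± 0.18 in Il17 cells and -2.47 ± 0.19 in other cells (difference 0.56 ± 0.07, edgeR adjusted p = 9.97e-09), and that on Ifitm3 was -1.38 ± 0.17 and -1.86 ± 0.10 (difference 0.49 ± 0.08, adjusted p = 5.8e-07). Without KO Th17 replicate 1 the difference of Ifitm1 was 0.54 and was not called (adjusted p = 0.302). In other cells Ifitm1 had 15.7 and 14.1 CPM in KO Th17 and 147 and 114 CPM in KO Th22, against 119 and 114 CPM in WT Th17 and 510.1 and 541 CPM in WT Th22, so its level was higher in the Il17 cells of every library. S100a6 rose more in Il17 cells, with a difference of 0.25 ± 0.06 (adjusted p = 0.021).

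Basp1, which encodes a membrane-bound signalling protein, had the smallest p of the difference (-0.83 ± 0.09, edgeR adjusted p = 2.1e-16). Il17 cells had 62.4 and 89.2 CPM of it in KO Th17 and 59.7 and 77.6 CPM in KO Th22, against 149.5 and 126 CPM in WT Th17 and 105 and 94.0 CPM in WT Th22. Other cells had 54.2 and 68.8 CPM in KO Th17 and 34.3 and 39.4 CPM in KO Th22, against 58.4 and 57.9 CPM in WT Th17 and 34.2 and 29.7 CPM in WT Th22. KO was thus below WT in the Il17 cells of each culture, while in the other cells KO and WT overlapped in Th17 and KO was slightly the higher in Th22. Tubb6 (-0.91 ± 0.21, adjusted p = 0.0054), Serpinb6b (-0.65 ± 0.13, adjusted p = 0.00064), Fosl2 (-0.55 ± 0.11, adjusted p = 0.0008) and Tnfrsf18 (-0.23 ± 0.05, adjusted p = 0.0056) followed the same pattern of a call in Il17 cells and none in other cells. The list was completed by Ermn, Prlr, which encodes the prolactin receptor, and AA467197.

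Il22 was called in the difference only (-0.52 ± 0.09, edgeR adjusted p = 3.8e-06). Its genotype effect was 0.078 ± 0.16 in Il17 cells and 0.59 ± 0.24 in other cells, and neither passed the test by itself. Other cells held 6.57 and 8.23 CPM in KO Th17 and 12.6 and 25.0 CPM in KO Th22, against 3.20 and 4.40 CPM in WT Th17 and 17.3 and 13.3 CPM in WT Th22. Atp6v0d2, a subunit of the proton pump of acidic compartments, had the largest named difference above 0 (1.05 ± 0.13, adjusted p = 2.6e-11), with a genotype effect of -0.31 ± 0.38 in Il17 cells and -1.30 ± 0.33 in other cells. Slfn2, which encodes a protein of T cell quiescence, differed by 0.56 ± 0.07, with 0.40 ± 0.10 in Il17 cells and -0.18 ± 0.08 in other cells.

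By list, all 16 G2/M genes had a difference above 0, with a median of 0.27, and 4 were called, namely Ccnb2 (0.58 ± 0.13), Hmmr (0.51 ± 0.13), Ube2c (0.28 ± 0.07) and Top2a (0.26 ± 0.07), while Prc1, another gene of cell division, differed by 0.56 ± 0.12. All 13 genes of ribosome biogenesis and Myc-driven growth had a difference below 0, with a median of -0.26, and 4 were called, namely Bop1 (-0.77 ± 0.17), Nop58 (-0.33 ± 0.07), Odc1 (-0.28 ± 0.06) and Nop56 (-0.26 ± 0.07). The median over all genes tested was -0.03, and 0.157% of them were called above 0 and 0.509% below 0. Of 17 activation and checkpoint genes, 3 were called and all were below 0, namely Tnfrsf9 (-0.40 ± 0.08), Tnfrsf4 (-0.23 ± 0.05) and Tnfrsf18. Further named differences below 0 were P4ha2 (-0.71 ± 0.20), Gap43 (-0.69 ± 0.17) and Cd74, the invariant chain of MHC class II (-0.66 ± 0.17), which rose by 1.59 ± 0.27 in other cells (adjusted p = 0.0198). With every cell thinned to 1500 UMIs, Il17 cells and other cells were chosen anew on the thinned counts, which left fewer Il17 cells. The difference then called 25 genes, and Ccnb2, Prc1 and Hmmr were not among them (edgeR adjusted p = 0.915, 0.518 and 0.789). These 3 were also not called without the 8% of cells with most UMIs or without KO Th22 replicate 2. Over all genes, leaving out 1 library gave 188 (KO Th17 replicate 1), 45 (KO Th17 replicate 2), 50 (WT Th17 replicate 1) or 56 (WT Th22 replicate 2).

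**Figure D5:**
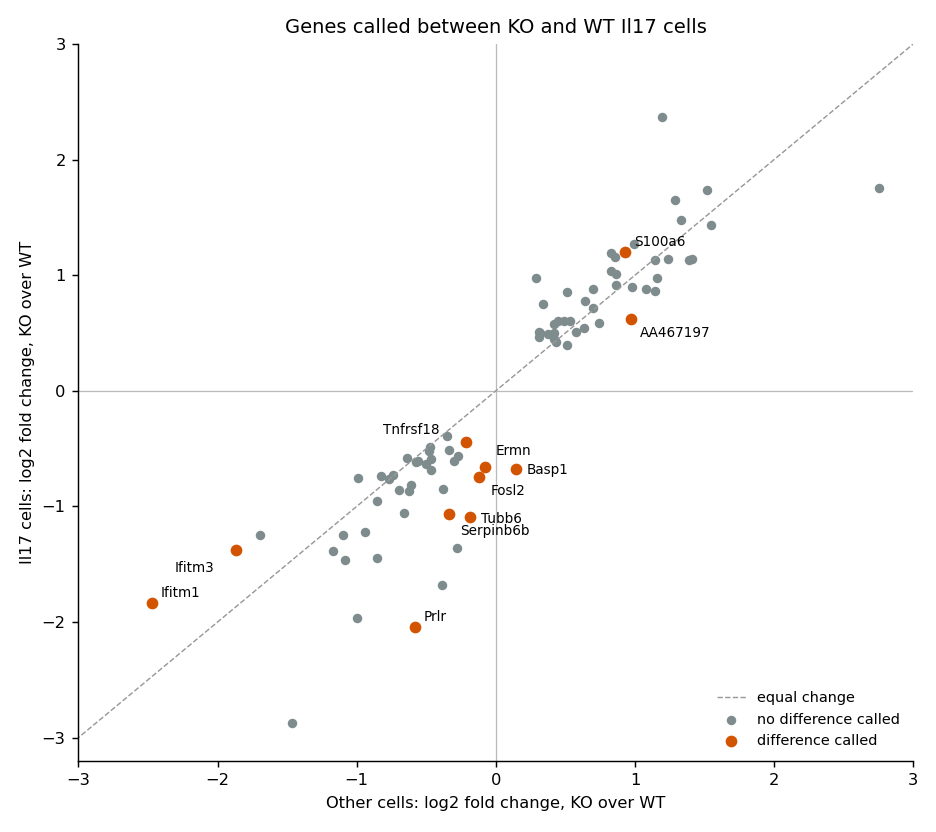
Log2 fold change of KO over WT in Il17 cells (vertical axis) against other cells (horizontal axis) for 84 of the 86 genes called in Il17 cells; 2 lie outside the axes, Gpr65 among them. Orange points mark the 11 genes whose 2 effects differed in a test of the difference, and the dashed line marks equal change; 85 of the 86 genes have the same sign on both axes, Basp1 being the exception.

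The number of called genes rested on single libraries. Leaving out WT Th17 replicate 1 gave 23, KO Th17 replicate 1 gave 34, WT Th22 replicate 2 gave 40, KO Th17 replicate 2 gave 43 and KO Th22 replicate 1 gave 175. The test counts the Th17 and Th22 libraries of a genotype as independent, and summing them by genotype and replicate number left 19 calls. Of the named genes, Gpr65, Nupr1, S100a6, Plek, Tent5a, Ecm1, Fcmr, Ltb4r1 and Fam102a were called under all 22 alternatives, while Chst2 lost its call under 16, Isg15 under 11, Cth, Tubb6 and Serpinb6b under 8 each, Cox6a2 under 7 and Ttc39c under 9 of 21.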

How the data were processed

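Spleen CD4+ T cells of 8 libraries were profiled by 10x single-cell RNA-seq. The authors deposited whole-number UMI counts for 16649 genes in 104660 cells, with library, genotype, culture and cluster per cell; the submitters' processing notes name Cell Ranger 5.0.1, Seurat and mm10. The percent of mitochondrial UMIs per cell is used as the authors deposited it. The deposited UMI total equalled the matrix sum in all 104660 cells. Counts of Il17 cells and of other cells were summed per library and tested with edgeR 4.0.16 (quasi-likelihood F test, robust, TMM, filterByExpr, genotype and culture as terms, Benjamini-Hochberg 0.05), on R 4.3.3. Il17a and Il17f stayed in library sizes and were not tested. The difference between Il17 cells and other cells used the 16 sums with library as a block. Cells with fewer than 1500 UMIs were left out. Thinning drew 1500 UMIs per cell. Il17 cells were then chosen anew on the thinned counts, which left, for example, 86 of them instead of 194 in KO Th22 replicate 1. Only the T cell and other marker shares and the second transcripts kept the choice made at full depth. Symbols matched mm10 annotation for 98.4% of genes. On simulated data for the genotype test of 9419 genes, 99% of 100 genes changed by 1 log2 unit were recovered, with 14 false calls. The changed genes were drawn only from those of higher level, so recovery of genes of low count was not measured. The simulated libraries varied independently, unlike the same-numbered libraries of a genotype here. Named genes were the 12 largest calls per direction (6 in other comparisons) with at least 10 CPM and no overlap of KO and WT within a culture. The overlap rule was not applied to the difference between Il17 cells and other cells. Called genes among the 4 members of smallest p in each list are also named, as is a fixed set of T helper genes. Gpr132, Atf5 and those of the 11 genes called both in Il17 cells and in the difference that fall outside these rules were named after their values were seen. The Il17 cells and the gene lists were chosen with earlier results of these data known. DESeq2 1.42.0, other size factors, other filters and left-out libraries were tried as alternatives. Some genes of these lists are not reported here.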

Additional observations from a re-analysis of the deposited data

Results flagged for a closer look

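The genotype effect differed between Il17 cells and other cells of the same libraries, in edgeR's test of the difference itself, for 12 named genes. The difference, Il17 cells minus other cells on the log2 scale, was 1.05 for Atp6v0d2, 0.58 for Ccnb2, 0.56 for Ifitm1, 0.56 for Prc1, 0.56 for Slfn2 and 0.51 for Hmmr. It was -0.91 for Tubb6, -0.83 for Basp1, -0.77 for Bop1, -0.71 for P4ha2, -0.69 for Gap43 and -0.66 for Cd74. Basp1 and Slfn2 kept the call under all 15 alternatives, while P4ha2 lost it under 12 and Hmmr under 8.

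Cells below 1500 UMIs, which entered no comparison, also held Il17 transcripts. An Il17a or Il17f UMI was found in 0.370% of 6211 such KO cells, against 1.89% of 5383 such WT cells.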

How the results depend on the processing

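The KO over WT ratio of the share of Il17 cells kept its direction under every alternative run. The ratio of Il17 UMIs per Il17 cell moved from -0.48 to -0.15 in Th17 with cells thinned to 1500 UMIs, and from -0.09 to 0.13 in Th22 with 2 or more Il17 UMIs required; the cause was not tested. Leaving out 1 library at a time gave 23 to 175 called genes over both cultures (86 with all), 15 to 104 in Th17 (41), 5 to 22 in Th22 (15), 0 to 15 for the difference between cultures (0), 51 to 708 in other cells (385) and 45 to 188 for Il17 cells minus other cells (85). Without a filter on low counts these were 212 over both cultures, 144 in Th17, 70 in Th22 and 29 for the difference between cultures. Over both cultures the count was 151 with median UMIs per cell as a covariate, 56 with 2 or more Il17 UMIs, 54 with thinned cells, 19 with Th17 and Th22 libraries summed by genotype and number, and 27 among Il17 cells outside cluster 2. The difference between cultures called 1 gene with the covariate, 1 with 2 or more Il17 UMIs and 1 with thinned cells. Thinned cells gave 214 in other cells and 25 for Il17 cells minus other cells.

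The labels state no pairing by replicate number, and same-numbered KO and WT libraries deviated in opposite directions (r of -0.15 to -0.38 over 2204 genes). Between cultures of one genotype the same-numbered libraries deviated alike, with r = 0.42 for KO and 0.42 for WT, which the 86 calls do not take into account and the 19 calls of the summed libraries do. A replicate block gave 60 calls over both cultures, 35 in Th17, 13 in Th22 and 0 for the difference between cultures. Crossed numbers gave 168, 154 and 77 calls. Crossed numbers and the split by cluster 2 were chosen after seeing the data.

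Among the genes followed through the alternatives, only those that were not called changed sign. Genes named only as list members, such as Batf, Hif1a, Icos and Atf5, were not followed. Some transcripts of the permutation test, in which none could pass, changed sign too. With libraries left out, log2 changes ranged from -0.068 to 0.24 for Il22, -0.12 to 0.28 for Tnf, -0.027 to 0.12 for Rora, -0.35 to 0.23 for Gata3, -0.17 to 0.38 for Ahr, -0.21 to 1.27 for Cyp1a1, -0.081 to 0.47 for Gzmb and -0.22 to 0.80 for Trdc. With 2 or more Il17 UMIs they were -0.048 for Il22, -0.22 for Tnf, -0.50 for Ahr and -0.30 for Cyp1a1. With 2500 or more UMIs they were -0.0013 for Il22, -0.084 for Tnf and -0.078 for Trdc. Outside cluster 2 they were -0.032 for Il22, -0.20 for Tnf and -0.24 for Mki67. Within cluster 2 they were -0.22 for Gata3 and -0.20 for Cyp1a1. Thinned cells gave -0.084 for Cyp1a1, and the covariate -0.035 for Gata3 and -0.49 for Cyp1a1. Gata3 was also -0.0045 without a filter, -0.027 with crossed numbers, -0.055 without the 8% of cells with most UMIs and -0.012 with libraries summed. For the percent of Il17 cells with a UMI, left-out libraries gave -0.31 to 1.66 points for Il22, -0.022 to 0.13 for Ifng, -0.28 to 0.21 for Il23r, -0.65 to 1.20 for Mki67 and -0.33 to 0.64 for Trdc. Without thinning, Il23r was 1.17 points. With 2 or more Il17 UMIs, Csf2 was 0.017, Il23r 0.27 and Trdc -0.38 points.

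KO sums held 194 to 416 Il17 cells per library, against 638 to 926 in WT, so genes of low count rest on fewer cells in KO.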
